A study of Mus musculus with 6 samples.

Results

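Transcripts of 29 genes of cholesterol synthesis and its control by SREBP, the sterol regulatory element-binding proteins, were followed in RAW264.7, a BALB/c mouse line of macrophages, after treatment with the extract C2S. The 29 genes were listed by symbol, with no measured value in the rule but with earlier results of these data known. Every symbol matched 1 of the 52636 genes in the tables. All 29 passed the filter on low counts, which left 11561 genes. They were 19 enzymes of the pathway in order of their reactions, 5 regulators of SREBP, 2 proteins of sterol transport and storage, the phosphatidate phosphatase gene Lpin1 and 2 subunits of the enzyme that starts dolichol synthesis. The list does not hold every gene of the pathway.

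The study sequenced total RNA of 6 libraries, of which 3 came from cells kept for 24 h in C2S at 150 µg/ml and the other 3, PM_control, from cells at 0 µg/ml. Neither name is spelled out in the labels, and whether replicates came from separate cultures is not stated, so p-values cover only the spread among these libraries, which may be technical. The question put to these genes was whether their transcripts differ between treated and untreated macrophages. Libraries held 10491304, 8594473 and 9132312 estimated counts in the C2S group and 10665867, 9642783 and 9149567 in the control group.

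Cholesterol is built from acetyl-CoA through mevalonate, the prenyl diphosphates, squalene and lanosterol, and the prenyl diphosphates also feed protein prenylation, dolichol and ubiquinone. When sterols in the endoplasmic reticulum run low, the escort protein SCAP carries SREBP2 to the Golgi, where proteases release the part that enters the nucleus and activates the genes of the pathway. When sterols are ample, INSIG proteins hold SCAP and SREBP2 in the endoplasmic reticulum, and macrophages store surplus cholesterol as esters.

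With C2S, 13 of the 29 genes rose, 4 fell and 12 did not pass the test. The largest rises were those of Lpin1, of Insig1, which encodes a retention protein of SREBP, and of Tm7sf2, a late sterol reductase. The 4 that fell were Insig2, Hmgcs1, Mbtps2 and Nus1. The share that rose was 44.8%, set against 27.0% of all tested genes, and the share that fell was 13.8%, against 28.4% (edgeR's quasi-likelihood F test, Benjamini-Hochberg adjusted p under 0.05 over all 11561 genes). Taking both directions, 58.6% of the 29 passed, close to the 55.4% of all genes. The list was drawn up with earlier results of these data known, so these shares only describe it. A rise of at least 2-fold was called for the 3 genes Lpin1, Insig1 and Tm7sf2, and for 7.34% of all genes. The ranges of C2S and control libraries were apart for 18 of the 29 genes, as they were for 61.1% of all genes. The median log2 fold change, C2S over PM_control throughout, was 0.12 over the 29 genes and -0.0021 over all genes. In bulk RNA, a change in the cells' number or state and a change in transcript per cell cannot be told apart.

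**Figure D1:**
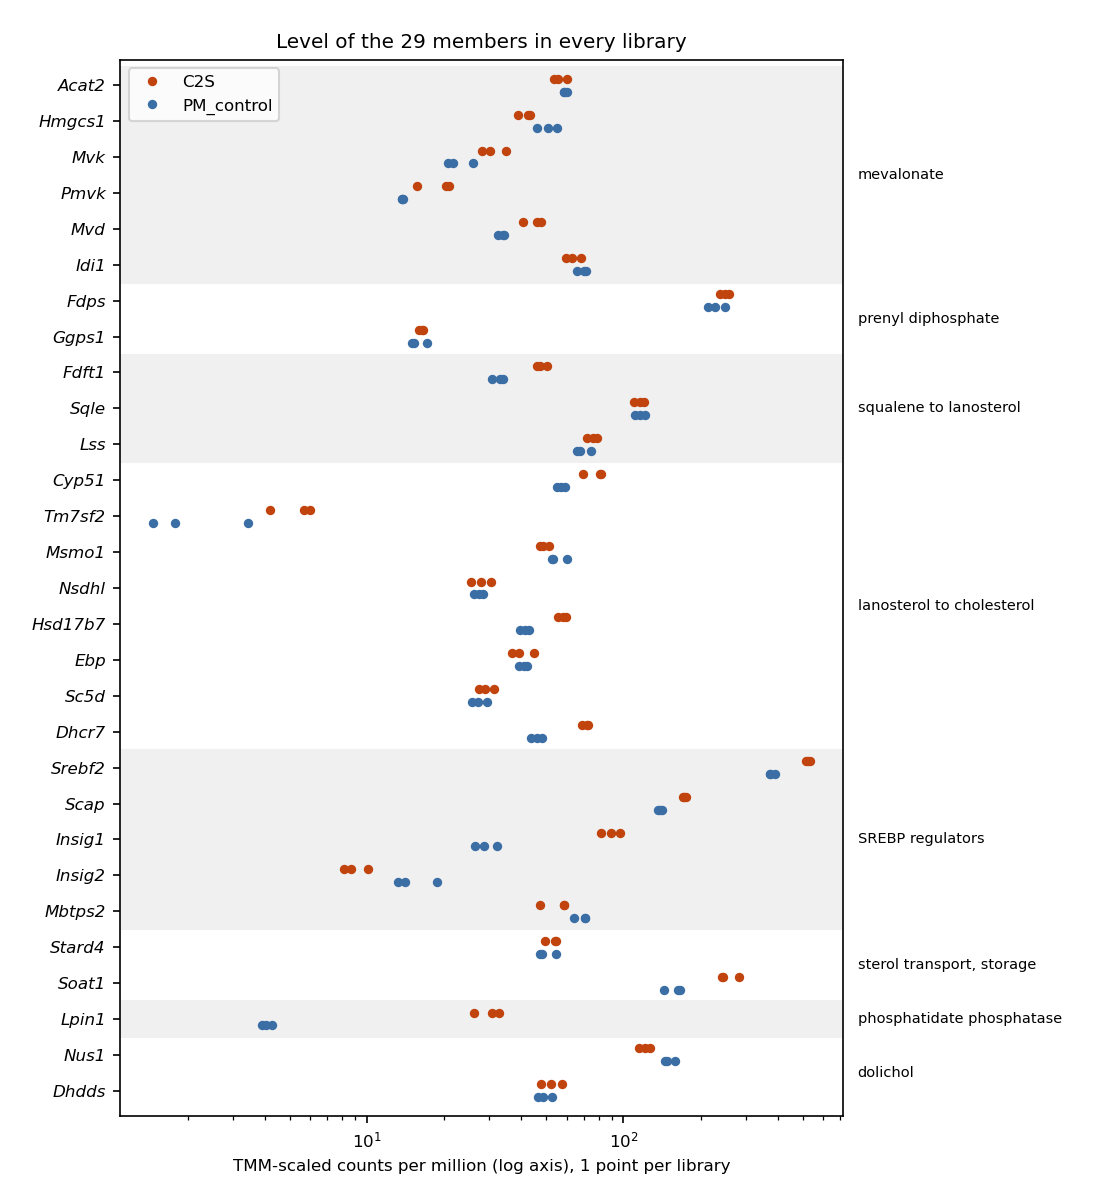
Level of each of the 29 genes in every library, as TMM-scaled CPM on a log axis, with orange points for the 3 C2S libraries and blue points for the 3 PM_control libraries. Lpin1 and Insig1 stand clearly to the right with C2S and Insig2 to the left. Tm7sf2 also lies to the right, with its lowest C2S point close to its highest control, and the points of Acat2, Sqle, Nsdhl and Ebp overlap.

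Among the 5 regulators of SREBP, Insig1, Srebf2 and Scap rose and Insig2 and Mbtps2 fell. Each of the 5 passed the test and none of them had overlapping groups. Among all tested genes, 55.4% passed and 61.1% had groups that were apart. The call of Mbtps2 was lost under some settings, as given below. Insig1 (ENSMUSG00000045294, chromosome 5, 28071363 to 28078662), itself a known target of SREBP, had 89.8, 97.4 and 82.1 CPM with C2S, against 28.6, 32.2 and 26.3 CPM in the controls. Gene positions are on GRCm38, and CPM are counts scaled to a common library size with TMM. Every C2S library was above every control, with 1.63 ± 0.09 as the log2 fold change and its SE (edgeR, adjusted p = 3.09e-10). Insig2 (ENSMUSG00000003721, chromosome 1, 121304353 to 121332589), the second retention protein, moved the other way, with 10.1, 8.66 and 8.15 CPM with C2S, against 13.2, 14.1 and 18.8 CPM in the controls. Its highest C2S library lay below its lowest control, and the log2 fold change was -0.76 ± 0.17 (edgeR, adjusted p = 0.00102). Per transcript length, Insig1 made up 83.2%, 85.0% and 85.3% of the summed TPM of both Insig genes with C2S, against 56.7%, 62.9% and 49.7% in the controls. TPM are RSEM's transcript levels, scaled for length and depth but not with TMM. The median log2 fold change over all genes tested was -0.094 with limma on log2(TPM + 1), against -0.0021 with edgeR. Levels in TPM thus tended to lie lower with C2S than those in CPM. The summed TPM of both genes was 62.0 ± 5.78 with C2S and 32.8 ± 0.140 in the controls (SD, n = 3 each), so the mixture shifted towards Insig1 while its total was higher.

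Insig1 and Insig2 moved in opposite directions, and Hmgcs1 fell while the gene of its activator rose. The promoter windows of the regulators Insig1, Insig2 and Srebf2 and of the enzyme gene Hmgcs1 are therefore shown. Each runs 5′ to 3′ from 250 bases before the transcript start to 50 bases after it, from RefSeq on GRCm38.p6. Capitals mark CCAAT, the core of the NF-Y box, the E-box CACGTG and the sterol response element searched as TCACNCCAC, each on either strand, so that CCAAT reads ATTGG on the reverse strand. The windows are at chr5:28071162-28071461 (plus strand) for Insig1, chr1:121332540-121332839 (minus strand) for Insig2, chr15:82147019-82147318 (plus strand) for Srebf2 and chr13:119690101-119690400 (plus strand) for Hmgcs1. RefSeq gives 2 further windows for Insig2, at other starts, in which none of these letters was found. Counts per gene do not show which start the cells used. The windows of Scap and Mbtps2, which hold no CCAAT, are not shown.
Insig1: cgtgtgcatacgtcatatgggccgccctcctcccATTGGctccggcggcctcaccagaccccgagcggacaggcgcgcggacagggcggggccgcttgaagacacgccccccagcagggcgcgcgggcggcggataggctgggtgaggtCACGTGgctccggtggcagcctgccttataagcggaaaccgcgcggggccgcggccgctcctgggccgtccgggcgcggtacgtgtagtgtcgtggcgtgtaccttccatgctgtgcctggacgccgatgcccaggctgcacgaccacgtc
Insig2: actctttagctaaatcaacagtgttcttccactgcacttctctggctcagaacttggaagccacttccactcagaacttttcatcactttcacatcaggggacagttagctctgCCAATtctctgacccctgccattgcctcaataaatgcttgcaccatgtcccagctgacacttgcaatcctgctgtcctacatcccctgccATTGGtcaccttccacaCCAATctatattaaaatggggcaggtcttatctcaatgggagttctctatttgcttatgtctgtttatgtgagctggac
Srebf2: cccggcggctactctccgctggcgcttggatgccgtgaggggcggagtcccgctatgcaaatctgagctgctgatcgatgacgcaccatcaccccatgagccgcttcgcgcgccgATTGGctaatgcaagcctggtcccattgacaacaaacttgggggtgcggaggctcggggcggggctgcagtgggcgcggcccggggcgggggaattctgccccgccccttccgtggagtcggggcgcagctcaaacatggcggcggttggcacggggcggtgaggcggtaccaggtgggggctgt
Hmgcs1: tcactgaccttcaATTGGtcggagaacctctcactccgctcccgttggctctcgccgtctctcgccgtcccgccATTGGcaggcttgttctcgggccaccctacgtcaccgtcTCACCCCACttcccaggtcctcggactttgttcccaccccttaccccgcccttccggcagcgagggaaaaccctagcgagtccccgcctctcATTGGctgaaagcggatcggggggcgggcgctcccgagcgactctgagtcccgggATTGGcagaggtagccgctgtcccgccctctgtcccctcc
The Insig1 window holds 1 reverse CCAAT that begins 216 bases before the start and an E-box that begins 101 bases before it. The Insig2 window holds 3 CCAAT matches, the nearest of them beginning 29 bases before the start, and the Srebf2 window holds 1, beginning 135 bases before it. The Hmgcs1 window holds the sterol response element as TCACCCCAC, beginning 137 bases before the start, and 4 reverse CCAAT matches.

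Srebf2 (ENSMUSG00000022463, chromosome 15, 82147181 to 82205379), which encodes SREBP2, had 536, 515 and 526 CPM with C2S, against 391, 374 and 372 CPM in the controls. The lowest C2S library was above the highest control by more than the range within either group, and the log2 fold change was 0.47 ± 0.06 (edgeR, adjusted p = 2.07e-06). Per transcript length it ranked just below Fdps and Soat1 among the 29, at 157 ± 1.78 TPM with C2S and 122 ± 5.22 TPM in the controls (SD, n = 3 each). Scap, the escort of SREBP, had 170.3, 175 and 173 CPM with C2S, against 136, 139 and 142 CPM in the controls, again without overlap (log2 fold change 0.32 ± 0.06; edgeR, adjusted p = 0.000185). The ratio of Insig1 to Scap in TPM was 0.764 ± 0.108 with C2S and 0.329 ± 0.0287 in the controls. Mbtps2, the intramembrane protease that frees the nuclear part of SREBP, had 58.8, 58.6 and 47.2 CPM with C2S, against 71.0, 64.2 and 70.6 CPM in the controls. All its C2S libraries were lower than the controls (log2 fold change -0.32 ± 0.09; edgeR, adjusted p = 0.00714), with C2S replicate 3 lowest. Its call was lost once the trend over GC content was removed (log2 fold change -0.00092; edgeR, adjusted p = 0.995) and on log2(TPM + 1) (limma, adjusted p = 0.116). Mbtps2 also shares 28.4% of its exon length with Yy2, and Scap 13.2% with 5830462I19Rik, so both counts are uncertain.

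Among the genes of sterol storage, transport and phosphatidate, Soat1 and Lpin1 rose and Stard4 did not pass. Soat1 (ENSMUSG00000026600, chromosome 1, 156424525 to 156474331), the acyltransferase that esterifies cholesterol in macrophages, had 241, 283 and 245 CPM with C2S, against 164, 166 and 144 CPM in the controls. The lowest C2S library was well above the highest control, and the log2 fold change was 0.70 ± 0.07 (edgeR, adjusted p = 4.91e-07). Stard4, a cytosolic sterol carrier and a known SREBP2 target, had 54.1, 49.3 and 54.5 CPM with C2S, against 54.7, 48.2 and 47.3 CPM in the controls, with overlapping groups (log2 fold change 0.07 ± 0.09; interval -0.10 to 0.24 at ± 2 SE; edgeR, adjusted p = 0.503). Lpin1 (ENSMUSG00000020593, chromosome 12, 16535669 to 16610966) encodes an enzyme that makes diacylglycerol and, in mice, also restrains SREBP in the nucleus. It had 26.0, 30.7 and 32.8 CPM with C2S, against 4.04, 4.25 and 3.88 CPM in the controls, the largest change of the 29 genes. The groups were far apart (log2 fold change 2.87 ± 0.15; edgeR, adjusted p = 9.18e-11), although Lpin1 had the lowest TPM of the 29 when averaged over all 6 libraries, at 10.6 ± 0.383 TPM with C2S and 1.72 ± 0.245 TPM in the controls (SD, n = 3 each). On log2(TPM + 1), a scale that understates the change of low genes, it was at 2.10.

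**Figure D2:**
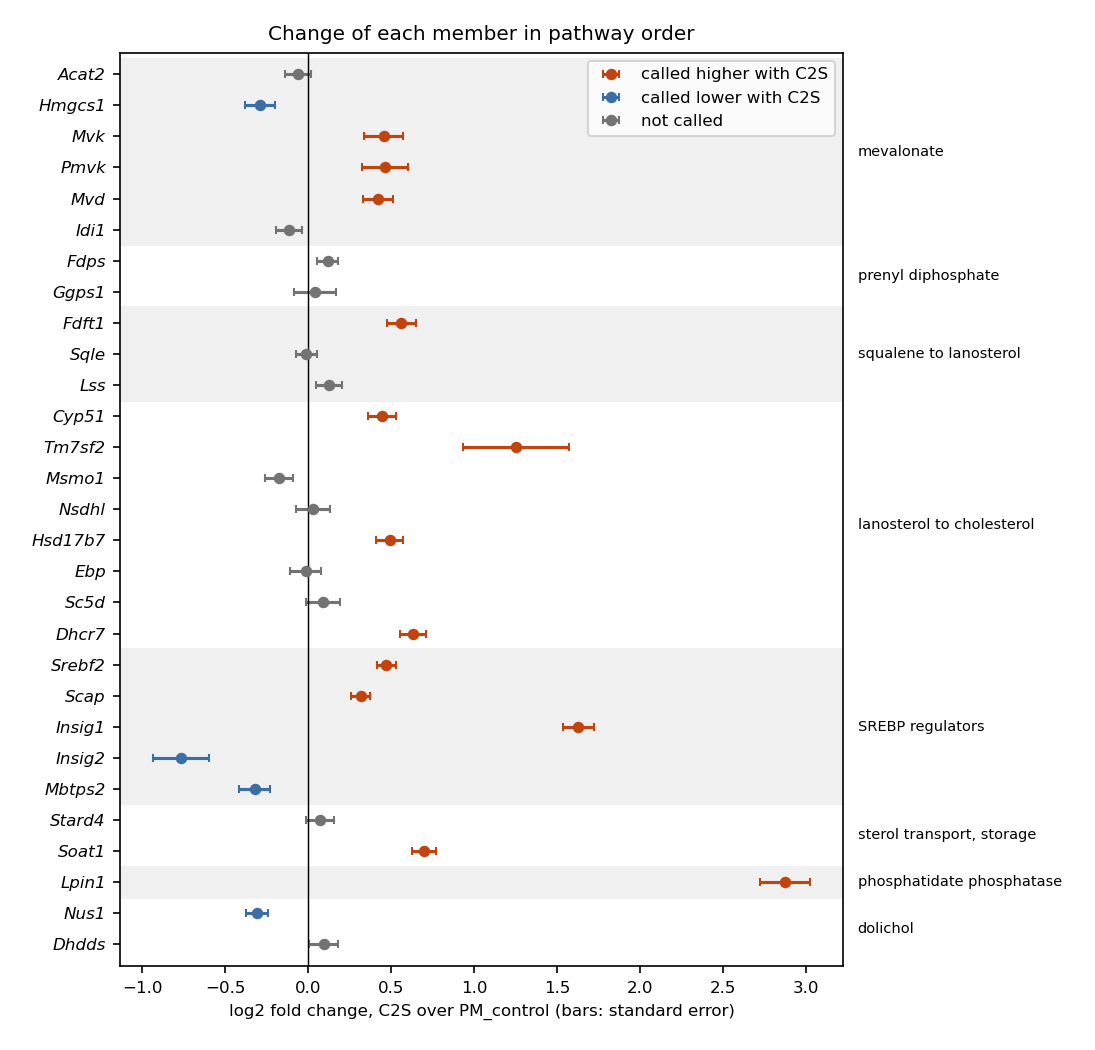
Log2 fold change of each of the 29 genes, C2S over PM_control, in pathway order, with bars of ± 1 SE from edgeR, orange for genes called higher, blue for genes called lower and grey for genes not called. Lpin1 at 2.87, Insig1 at 1.63 and Tm7sf2 at 1.25 lie farthest to the right, Insig2 at -0.76 farthest to the left, and 18 of the 19 enzymes lie between Hmgcs1 at -0.29 and Dhcr7 at 0.63.

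Of the 19 enzymes, 8 rose (42.1%), 1 fell (5.26%) and 10 did not pass the test, with a median log2 fold change of 0.12. Among all tested genes, 27.0% rose and 28.4% fell. In either direction, 47.4% of the enzymes passed, against 55.4% of all genes. Among the 6 enzymes of the mevalonate steps, Mvk, Pmvk and Mvd rose and Hmgcs1 fell. Hmgcs1 (ENSMUSG00000093930, chromosome 13, 119690379 to 119708260), the HMG-CoA synthase that makes the substrate of the rate-limiting step, had 42.4, 39.0 and 43.1 CPM with C2S, against 55.3, 46.1 and 50.9 CPM in the controls. Its groups did not overlap, by a narrow margin (log2 fold change -0.29 ± 0.09; edgeR, adjusted p = 0.0113). The call was lost without the first PM_control replicate (log2 fold change -0.23; edgeR, adjusted p = 0.0618) and with the GC trend removed (-0.12; adjusted p = 0.275), and 12.1% of its exon length is shared with Gm48342. The ratio of Hmgcs1 to Srebf2 in TPM was 0.125, 0.119 and 0.129 in the C2S libraries, against 0.220, 0.199 and 0.217 in the control libraries, with no overlap.

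The kinases and the decarboxylase that follow moved together. Mevalonate kinase, Mvk, had 35.0, 30.3 and 28.1 CPM with C2S, against 21.7, 20.7 and 25.9 CPM in the controls. Phosphomevalonate kinase, Pmvk, had 20.9, 15.6 and 20.4 CPM with C2S, against 13.9, 13.8 and 13.7 CPM in the controls. Mvd, which makes isopentenyl diphosphate, had 47.8, 40.8 and 46.0 CPM with C2S, against 34.2, 34.0 and 32.3 CPM in the controls. In each of these 3 genes all C2S libraries were higher, and log2 fold changes were 0.46 ± 0.12 for Mvk, 0.47 ± 0.14 for Pmvk and 0.42 ± 0.09 for Mvd (edgeR, adjusted p = 0.00334, 0.00897 and 0.000769). On log2(TPM + 1), Mvk (limma, adjusted p = 0.0892) and Pmvk (0.0591) missed the threshold. At either end of these steps, Acat2, the thiolase that joins acetyl-CoA units, had a log2 fold change of -0.06 ± 0.08 and Idi1, the isopentenyl diphosphate isomerase, one of -0.12 ± 0.08. Neither passed, with intervals at ± 2 SE of -0.22 to 0.10 and -0.28 to 0.04.

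The prenyl diphosphate synthases gave no call. Fdps, which makes farnesyl diphosphate, was the most abundant of the 29 transcripts, at 357 ± 14.8 TPM with C2S and 357 ± 22.2 TPM in the controls (SD, n = 3 each; log2 fold change 0.12 ± 0.06; edgeR, adjusted p = 0.14). Ggps1, which makes geranylgeranyl diphosphate, was at 13.6 ± 1.80 TPM with C2S and 13.8 ± 0.686 TPM in the controls (log2 fold change 0.04 ± 0.13; edgeR, adjusted p = 0.804). Both groups overlapped in each gene, and the ratio of Fdps to Ggps1 in TPM was 26.5 ± 2.82 with C2S and 25.9 ± 2.94 in the controls. Exons of Fdps overlap Gm43738 over 26.7% of their length, and its counts were not whole numbers, so its value is uncertain.

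Of the 3 enzymes from squalene to lanosterol, Fdft1 (ENSMUSG00000021273, chromosome 14, 63145150 to 63179578), squalene synthase and the first enzyme committed to sterols, rose. It had 50.2, 47.1 and 46.2 CPM with C2S, against 30.6, 33.8 and 33.1 CPM in the controls, with every C2S library higher (log2 fold change 0.56 ± 0.09; edgeR, adjusted p = 3.54e-05). Its exons share 18.3% of their length with Ctsb on the opposite strand, a far more abundant cathepsin gene that had a like log2 fold change of 0.51 ± 0.06, so its value is uncertain. The part of the overlap in it was not tested. Sqle, the squalene monooxygenase that is a second slow step of the pathway, had 119.8, 116 and 110.4 CPM with C2S, against 116, 122 and 111 CPM in the controls. The groups lay on top of each other, with a log2 fold change of -0.01 ± 0.07 and an interval at ± 2 SE of -0.14 to 0.12. Lss, lanosterol synthase, was at 0.12 ± 0.08 on the log2 fold change scale and did not pass (edgeR, adjusted p = 0.189).

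Of the 8 enzymes from lanosterol to cholesterol, Cyp51, Tm7sf2, Hsd17b7 and Dhcr7 rose and the other 4 did not pass. Dhcr7 (ENSMUSG00000058454, chromosome 7, 143823145 to 143848410), the reductase that completes cholesterol, had 69.3, 72.9 and 72.1 CPM with C2S, against 48.4, 43.8 and 46.1 CPM in the controls. Its C2S libraries were all above the controls (log2 fold change 0.63 ± 0.08; edgeR, adjusted p = 3.57e-06). Hsd17b7, a ketoreductase that helps remove methyl groups from lanosterol, had 58.1, 59.8 and 55.5 CPM with C2S, against 39.5, 41.2 and 42.7 CPM in the controls. Cyp51, the lanosterol demethylase, had 82.1, 81.2 and 69.6 CPM with C2S, against 59.0, 55.0 and 57.3 CPM in the controls. Both were higher in every C2S library, by log2 fold changes of 0.49 ± 0.08 and 0.44 ± 0.08 (edgeR, adjusted p = 6.72e-05 and 0.000235), and both calls were lost on log2(TPM + 1) (limma, adjusted p = 0.153 for Hsd17b7 and 0.169 for Cyp51).

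Tm7sf2 (ENSMUSG00000024799, chromosome 19, 6062821 to 6068373), a sterol reductase, had 5.70, 6.01 and 4.19 CPM with C2S, against 1.47, 3.44 and 1.78 CPM in the controls. It was the least abundant enzyme, and its lowest C2S library was close to its highest control. The log2 fold change of 1.25 ± 0.32 thus rests on few reads (edgeR, adjusted p = 0.00307). It shares 12.1% of its exon length with Vps51 on the same strand, and its counts were not whole numbers, so its value is uncertain. Vps51 had 63.5, 59.6 and 59.6 CPM with C2S, against 50.7, 51.6 and 49.2 CPM in the controls (log2 fold change 0.27 ± 0.08; edgeR, adjusted p = 0.0072). The part of this overlap in the value of Tm7sf2 was not tested. Msmo1, the methylsterol monooxygenase of the same demethylation as Hsd17b7, had 48.7, 51.1 and 47.3 CPM with C2S, against 53.3, 60.3 and 52.6 CPM in the controls. All its C2S values were lower, yet it did not pass (log2 fold change -0.18 ± 0.08; edgeR, adjusted p = 0.0871). Nsdhl, a dehydrogenase of that demethylation, was at 0.03 ± 0.10, Ebp, a sterol isomerase, at -0.02 ± 0.09, and Sc5d, a sterol desaturase, at 0.09 ± 0.10 on the log2 fold change scale. None of these 3 passed, and their intervals at ± 2 SE ran from -0.18 to 0.24, -0.20 to 0.17 and -0.12 to 0.29.

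Of the subunits of the dolichol enzyme, Nus1 fell and Dhdds did not pass. Nus1, the regulatory subunit, had 127, 116 and 121 CPM with C2S, against 145, 159.6 and 148 CPM in the controls. Its highest C2S library was below its lowest control (log2 fold change -0.31 ± 0.06; edgeR, adjusted p = 0.000659), although the call was lost with the GC trend removed (-0.10; edgeR, adjusted p = 0.207). Dhdds, the catalytic subunit, was at 0.09 ± 0.09 (edgeR, adjusted p = 0.404), and the ratio of Nus1 to Dhdds in TPM was 1.05 ± 0.0847 with C2S and 1.33 ± 0.179 in the controls.

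Summed transcript levels of the 19 enzymes overlapped between the groups, and those of the other 10 genes did not. The summed TPM of the 19 enzymes was 1017, 975 and 1010.3 in the C2S libraries, against 949, 943 and 985 in the control libraries. Fdps, whose value is uncertain, was the largest part of it. Fdps alone had 373, 343 and 355 TPM with C2S, against 339, 350 and 382 TPM in the controls. The overlap of the enzyme sum thus leans on this gene and does not describe the other enzymes. The summed TPM of the other 10 genes was 659, 663 and 636 in the C2S libraries, against 524, 509 and 483 in the control libraries. Within the enzymes, the 8 late ones summed to 281 ± 4.83 TPM with C2S and 244 ± 1.89 TPM in the controls, while the mevalonate steps summed to 209 ± 7.29 with C2S and 199 ± 5.78 in the controls (SD, n = 3 each). The regulators summed to 312 ± 6.75 TPM with C2S and 241 ± 5.20 TPM in the controls, and Srebf2 and Scap made up most of both sums. The dolichol pair summed to 77.3 ± 0.927 TPM with C2S and 93.1 ± 1.44 TPM in the controls. These sums are descriptions, with no test.

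**Figure D3:**
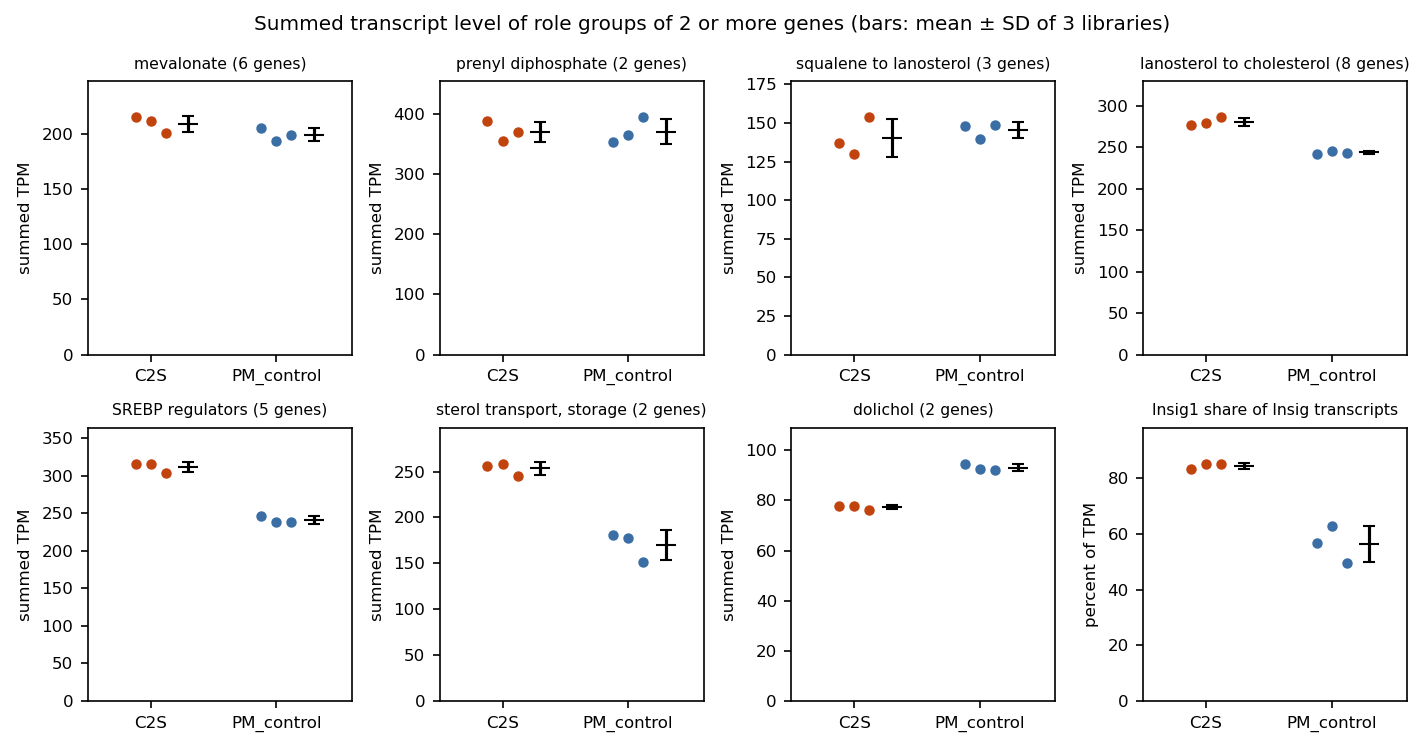
Summed TPM of the 7 role groups of at least 2 genes in every library, with C2S left of PM_control and bars of mean ± SD of 3 libraries, and, at the lower right, Insig1 as a percent of the summed TPM of Insig1 and Insig2. Regulators, transport and storage, and late enzymes are higher with C2S, the dolichol pair is lower, the other groups shown overlap, and the Insig1 share is 84.5 ± 1.14% with C2S against 56.4 ± 6.61% in the controls.

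Calls and non-calls were mixed along the chain of reactions. In pathway order, Mvk, Pmvk and Mvd rose between Acat2 and Idi1, which did not pass, and Fdft1 rose between Fdps and Sqle, which did not pass either. Across the 29 genes, Spearman's rho between mean TPM and log2 fold change was -0.05. GC content and log2 fold change had a rho of 0.52, and both are descriptions of 29 genes that share the same libraries. Over all nuclear protein-coding genes, the median log2 fold change was -0.34 in the tenth poorest in GC and 0.17 in the tenth richest in GC, and the part of GC content in the members' values was not tested beyond the fit with its trend removed. That fit called 16 genes higher and 1 lower, Insig2.

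Of the 25 genes with a RefSeq promoter window, 21 (84.0%; Wilson 95% interval 65.3% to 93.6%) held CCAAT on either strand, set against 41.1% of 27025 genes. A gene with several windows, such as Insig2, was counted if any of them held a match. The 4 without it were Acat2, Lpin1, Mbtps2 and Scap. The E-box CACGTG was found in 6 genes (24.0%; interval 11.5% to 43.4%), Dhcr7, Dhdds, Hsd17b7, Insig1, Sc5d and Scap, against 8.09% of all genes. The sterol response element TCACNCCAC was found in Hmgcs1 alone (4.0%; interval 0.71% to 19.5%), against 1.44% of all genes, and its shorter core CACNCCAC in Acat2, Hmgcs1 and Insig1, against 7.12%. A match is a stretch of letters in the window and not a site shown to be bound. The search allowed no other letters, so variants of an element were not counted, and a window without a match may still hold one. Fdps, Fdft1, Sqle and Stard4 had no window and were not searched. Genes with and without CCAAT each held both higher and lower calls.

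Genes around the pathway, in 8 further lists of 94 genes of which 92 were tested, moved in both directions, with 31 higher and 21 lower. These are 33.7% and 22.8%, beside 27.0% and 28.4% of all genes. Ubiquitin ligases of the endoplasmic reticulum degrade enzymes and INSIG proteins of the pathway in a way set by sterols. Of 15 genes of that degradation, 5 rose (33.3%) and 6 fell (40.0%). The 5 higher calls became 2 without C2S replicate 3, PM_control replicate 2 or PM_control replicate 3, and 3 without C2S replicate 1 or PM_control replicate 1. Rnf145, a sterol-responsive ligase gene, was at 12.5 ± 1.54 CPM with C2S and 68.9 ± 2.85 CPM in the controls (SD, n = 3 each; log2 fold change -2.45 ± 0.10; edgeR, adjusted p = 3.91e-12). Rnf139, another ligase, fell too (log2 fold change -1.23 ± 0.12), though 22.3% of its exon length is shared with Tatdn1. Aup1, which recruits a ubiquitin-conjugating enzyme, rose by 0.31 ± 0.06 on the log2 scale and shares 23.0% of its exon length with Htra2. Ufd1, a cofactor of the extraction complex, rose by 0.28 ± 0.09. Of 10 genes of COPII coats, which carry SREBP out of the endoplasmic reticulum, 2 rose and 1 fell, with Sec24a at 0.46 ± 0.09, Sec31a at 0.25 ± 0.06 and Sec24c at -0.34 ± 0.06, and 2 fell without C2S replicate 2 or 3.

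Genes of cholesterol traffic moved both ways, and the called genes of cholesterol export were higher. Of 19 genes of intracellular traffic and ester hydrolysis, 6 rose (31.6%) and 4 fell (21.1%), beside 27.0% and 28.4% of all genes. Without PM_control replicate 2, 4 rose and 2 fell. Nceh1, a hydrolase of cholesteryl esters, rose by 0.99 ± 0.06 on the log2 scale, while Lipe, another one, was at -0.94 ± 0.10 with 15.6% of its exon length shared with 4732471J01Rik, and Osbpl11, an oxysterol-binding protein, was at -0.54 ± 0.10. Gramd1c, a sterol carrier at membrane contacts, had 63, 56 and 77 counts with C2S, against 4, 0 and 1 in the controls, so its size rests on few reads. Of 8 tested genes of LXR sensing and sterol efflux, 5 passed (62.5%, against 55.4% of all genes) and each was higher, with a median log2 fold change of 0.68. The cholesterol exporter gene Abca1 was at 27.2 ± 0.238 CPM with C2S and 6.82 ± 0.825 CPM in the controls (SD, n = 3 each), and Abcg1 was at 164 ± 8.20 CPM with C2S and 85.7 ± 10.5 CPM in the controls. Of 12 fatty acid genes that SREBP proteins activate, 8 rose (66.7%) and 1 fell (8.33%), with Aacs at 0.60 ± 0.09, Acly at 0.56 ± 0.06 and the elongase gene Elovl6 at -1.10 ± 0.10. On log2(TPM + 1), 4 of the 12 were called higher.

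Users of the prenyl diphosphates moved both ways, as did all tested genes, of which 27.0% rose and 28.4% fell. Of 11 genes of protein prenylation, 2 rose (18.2%), or 1 without PM_control replicate 3, and 5 fell (45.5%). Rabggtb was at 0.47 ± 0.08 and Rabggta at 0.33 ± 0.10, both subunits of the transferase that modifies RAB proteins. Chml, an escort of RAB proteins, was at -1.10 ± 0.20 and Fnta, a subunit of the farnesyltransferase, at -0.53 ± 0.09. Of 12 genes of dolichol, ubiquinone and tRNA modification, 2 rose (16.7%) and 2 fell (16.7%). Among those that fell was the dolichol kinase gene Dolk, with 82, 41 and 112 counts with C2S, against 257, 255 and 264 in the controls (log2 fold change -1.58 ± 0.21). Dpm1, of dolichol phosphate mannose synthesis, was at -0.40 ± 0.15 and shares 12.0% of its exon length with Gm20716, Trit1, a tRNA isopentenyltransferase, was at 0.38 ± 0.14 and Dpagt1, which starts glycans on dolichol, at 0.21 ± 0.08. The calls of Trit1 and Dpagt1 were both lost without C2S replicate 2, PM_control replicate 2 or PM_control replicate 3, with library sizes alone and on log2(TPM + 1), and 1 gene of this list in place of 2 was lower without C2S replicate 1 or 2. Of 5 genes of electron supply to sterol enzymes, 1 rose and 2 fell, or 1 fell without C2S replicate 2 or PM_control replicate 1. Por, the reductase that feeds CYP51 and squalene monooxygenase, rose by 0.72 ± 0.06, and Erg28, a scaffold protein of the late enzymes, was at -0.51 ± 0.10 and Cyb5b at -0.17 ± 0.06. Dolk has 1 exon and Chml and Rnf139 have 2, and the median log2 fold change of the 705 genes of at most 2 exons was -0.42, that of genes of 10 exons or more 0.06. The part of exon number in their values was not tested.

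**Figure D4:**
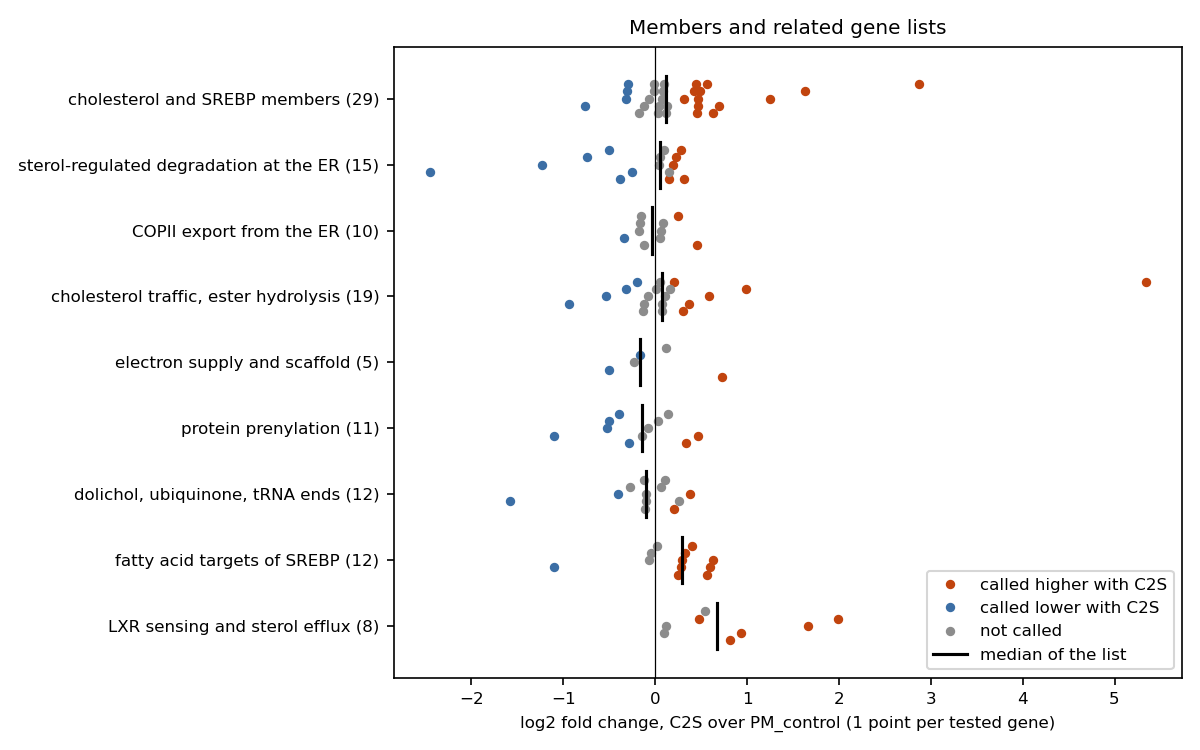
Log2 fold change of each tested gene of the 29 genes (top row) and of the 8 further lists, C2S over PM_control, with orange for genes called higher, blue for lower, grey for not called and a black line at each list's median. Called genes lie on both sides of 0 in every row but the LXR one, with Gramd1c and Lpin1 farthest right, Rnf145 farthest left, and the LXR list at a median of 0.68.

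The macrophage identity of the libraries was checked on 10 markers, which summed to between 8497 and 8703 CPM with C2S and between 7293 and 7713 CPM in the controls, with 5 higher and 1 lower of the 9 tested. Markers of T cells summed to between 3.83 and 4.19 CPM with C2S and between 1.72 and 2.75 CPM in the controls, without overlap, and the 1 of 6 that was tested was called higher, with Cd3e and Cd8a at 0 counts in every library. Markers of B cells summed to between 1.93 and 3.83 CPM with C2S and between 0.0918 and 0.405 CPM in the controls, with Ms4a1 at 0 counts in every library. Markers of fibroblasts, epithelial cells and hepatocytes summed to at most 0.589 CPM in any library. The part of these markers in the values above was not tested. A floor of 3 counts corresponded to between 0.281 and 0.349 CPM and covers counting error only.

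Over the 18 alternatives to the test and its settings, 10 of the 17 called genes kept their sign and their side of the threshold in each that measured them. These were Mvd, Fdft1, Tm7sf2, Dhcr7, Srebf2, Scap, Insig1, Insig2, Soat1 and Lpin1. Msmo1 passed, as lower, with library sizes alone (edgeR, adjusted p = 0.0132) and on log2(TPM + 1) (limma, adjusted p = 0.0358). Over all alternatives, most of them with edgeR, the adjusted p ran from 0.00177 to 0.275 for Hmgcs1, 0.000532 to 0.995 for Mbtps2, 2.31e-05 to 0.207 for Nus1 and 0.000822 to 0.0892 for Mvk. It ran from 0.00135 to 0.0591 for Pmvk, 2.94e-06 to 0.153 for Hsd17b7, 8.1e-06 to 0.169 for Cyp51 and 0.0132 to 0.491 for Msmo1.

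**Figure D5:**
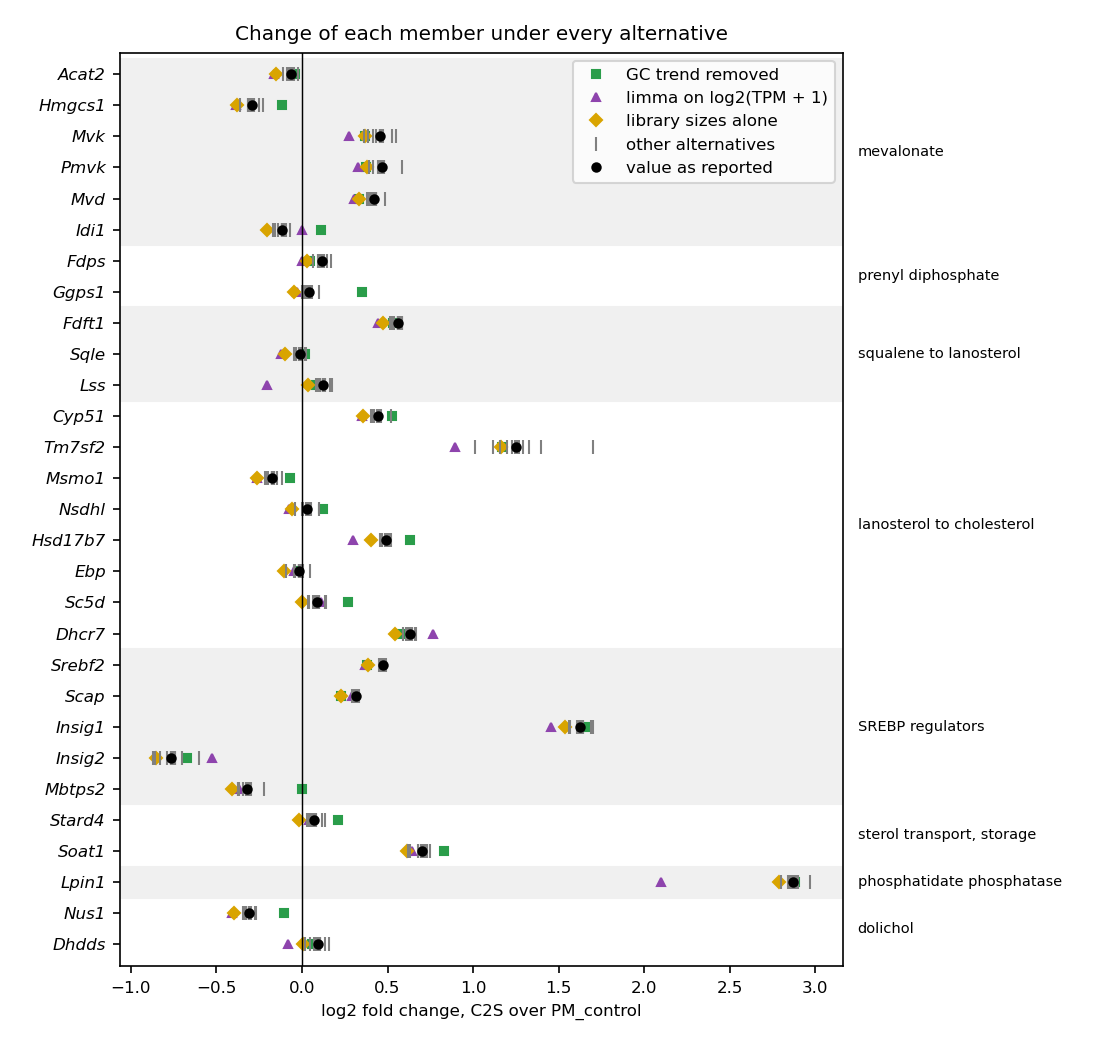
Log2 fold change of the 29 genes as reported (black points) and under each alternative, 1 row per gene, with green squares for the GC trend removed, purple triangles for limma on log2(TPM + 1), yellow diamonds for library sizes alone and grey ticks for the others. Lpin1, Insig1, Tm7sf2 and Insig2 stay on their side of 0 under each, and the green squares of Hmgcs1, Mbtps2 and Nus1 lie closer to 0 than the values as reported.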

How the data were processed

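Total RNA of 6 RAW264.7 libraries, 3 with C2S and 3 PM_control, was sequenced, and groups follow the titles and treatment labels. Per the series design text, the authors trimmed reads with fastp, aligned them to mm10 with STAR and counted them per gene with RSEM; tool versions, the annotation and the library's strandedness are not stated there. The deposited tables hold expected counts, RSEM's estimated reads per gene, and TPM, scaled for length and depth, per the file headers. The deposited FPKM values were not used.

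After rounding of the expected counts, filterByExpr (at least 10 counts, total of at least 15) kept 11561 genes and 99.85% of counts. Groups were compared with the quasi-likelihood F test of edgeR 4.0.16 (R 4.3.3), with TMM scaling, no covariate and Benjamini-Hochberg adjusted p-values under 0.05 over all genes. CPM are TMM-scaled, and the SE is the log2 fold change divided by the square root of F, hence approximate. Replicates were checked for duplicates by chi-square tests of their counts, with ratios to degrees of freedom of 4.30 to 6.46, and each counted as 1 sample. The first principal component, with 81.1% of the variance, separated the groups. The fit was tested on simulated data.

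All 29 members were named, and per further list up to 2 called genes per direction by adjusted p. Members and lists were chosen with earlier results of these data known. Gene positions, exon numbers, overlaps and GC content come from GENCODE M21 (GRCm38) and promoters from RefSeq (GRCm38.p6). Genes sharing at least 10% of their exon length with another gene, or with expected counts over 0.005 from a whole number (Acat2, Idi1, Fdps, Tm7sf2 and Mbtps2 among the members), are uncertain. Alternatives were RLE, upper quartile and library-size scaling, DESeq2 1.42.0, limma-voom and limma 3.58.1 on log2(TPM + 1) where the mean TPM was at least 1, other or no low-count filters, unrounded counts, genes of whole counts alone, removal of each library's trend over GC content, a replicate block and leaving out each library. The values of some marker genes are not reported here.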

Additional observations from a re-analysis of the deposited data

How the results depend on the processing

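Of the counts over all genes, over the 29 genes and over all further lists together, 4 moved by over 1.5 times, and counts of single lists moved more often. With limma on log2(TPM + 1), 1717 genes in place of 3123 were higher over all genes and 17 in place of 31 in the further lists. With library sizes alone, 32 genes of those lists in place of 21 were lower, and with the GC trend removed 1 of the 29 genes in place of 4 was lower. The cause was not tested. Of the 19 enzymes, 4 in place of 8 were higher on log2(TPM + 1), and 3 in place of 1 were lower with library sizes alone. With library sizes alone, 1 in place of 5 genes of degradation was higher, 7 in place of 4 genes of traffic were lower and 5 in place of 1 of COPII coats were lower. Higher genes made up 48.8% of all calls, but 38.3% with library sizes alone, 35.9% on log2(TPM + 1) and 54.0% with the GC trend removed. The 29 genes gave 13 higher and 4 lower calls with the replicate block as without it. The block gave 3192 higher and 3297 lower over all genes. For same-numbered libraries, deviations of log2 CPM from the mean of their own group correlated at -0.0112, 0.0686 and 0.0344. The numbers are therefore not treated as pairs. Leaving out each library gave 13 to 14 higher and 3 to 4 lower. Of the 29, only genes that did not pass as reported changed sign, 8 in all. With the GC trend removed, Idi1 was at 0.11 and Sqle at 0.016 on the log2 scale. Ggps1 was at -0.047 with library sizes alone and -0.028 on log2(TPM + 1), Nsdhl at -0.058 and -0.075, Stard4 at -0.016 with library sizes alone, and Lss at -0.21 and Dhdds at -0.084 on log2(TPM + 1). Sqle was at 0.0015 with RLE and 0.0015 with DESeq2. Over the left-out libraries, Ggps1 ran from -0.0012 to 0.097, Sqle from -0.046 to 0.022, Nsdhl from -0.040 to 0.10 and Ebp from -0.096 to 0.048. Calls gained were those of Ggps1 (edgeR, adjusted p = 0.0269), Sc5d (0.0318) and Stard4 (0.0498) with the GC trend removed, Idi1 (0.0396) with library sizes alone and Fdps (0.0465) without PM_control replicate 3. Summed TPM kept its order when rescaled over the genes that passed the filter. That alternative multiplies every gene of a library by the same factor, so it could hardly change the order. The motif shares kept their order under their alternatives. Tm7sf2 and Insig2 had the fewest counts, which limits their precision.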
